A study of Mus musculus with 2 samples.

Results

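Contacts between different autosomes were read as 1 Mb windows of chromosomes 1 to 19, each made of 20 adjoining 50 kb bins, and as all contacts whose ends lay in windows on different autosomes (trans contacts). These contacts were the complete set of autosomal trans contacts, not a choice by value. There were 2473 such windows on 19 autosomes, taken from a table of 54521 bins that also covers the other chromosomes, and each autosome was paired with the other 18. The autosomal trans contacts were 4703030 of 22686004 contacts in the vehicle library (20.7%) and 4928407 of 29003442 in the GW4064 library (17%). Of the windows, 2374 had at least 15 bins above 25% of the median bin and were kept. They held 98.8% of the autosomal trans contacts in vehicle and 98.7% in GW4064.

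The material was liver of wildtype mice, given a single oral gavage and killed 4 h later. The gavage was either a propylene glycol and Tween 80 vehicle or the same vehicle with GW4064, an agonist of the bile acid receptor FXR (Nr1h4). Chromatin contacts were captured by HiChIP, a Hi-C ligation followed by precipitation, here with an antiserum to Foxa2, a pioneer transcription factor of hepatocytes. There was 1 library per treatment, so no test between treatments is possible, and the sources used here do not give strain, age, sex or how many livers went into a library. Contacts do not report expression, so the tissue label could not be checked against marker genes.

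In interphase nuclei each chromosome fills its own territory, and trans contacts form where territories meet or intermingle. Gene-dense chromatin of different chromosomes gathers around nuclear speckles, which hold splicing factors, and gene-poor chromatin gathers at the lamina and the nucleolus. The nucleolus forms at arrays of ribosomal RNA genes (rDNA), which in mice lie next to the centromeres of a few acrocentric chromosomes. The set used here was chromosomes 12, 15, 16, 18 and 19, and which of them carry active arrays differs between strains. Hepatocytes are often polyploid, with several copies of every chromosome.

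For each pair of chromosomes, the observed count was divided by an expected count fitted so that every chromosome kept its own trans total (observed over expected, O/E, where 1 means as many contacts as the totals alone give). Intervals are 95% exact Poisson intervals for O/E and exact binomial intervals for shares and ratios. They cover counting error only and do not stand in for replicates. Because the totals are fixed, a pair above 1 forces other pairs of the same chromosomes below 1.

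Short chromosomes made more of their contacts outside their own territory. Chromosome 19, the shortest at 61.4 Mb, had 4820 autosomal trans contacts per window in vehicle and 5113 in GW4064, and 37.1% and 32.3% of its contacts were trans. Chromosome 1, the longest at 195 Mb, had 3384 and 3556 per window, and 23.2% and 19.5% trans. Across the 19 autosomes, length and trans contacts per window had r = -0.921 (rho = -0.935) in vehicle and r = -0.913 (rho = -0.933) in GW4064, as a description of chromosomes that share a library. Gene density, the number of protein-coding genes per window, followed the trans share only weakly, with r = 0.339 in vehicle and 0.389 in GW4064.

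The pair of chromosomes 11 and 19 stood above all others. It held 26882 contacts in vehicle, where 15718 were expected, an O/E of 1.71 (1.69 to 1.73), and 27829 in GW4064, an O/E of 1.74 (1.72 to 1.76). Chromosomes 11 and 19 are both among the 5 with the most protein-coding genes per window, together with 2, 7 and 17. The next pairs in vehicle were 15-19 at 1.37, 16-19 at 1.30, 18-19 at 1.24 and 16-18 at 1.21. In GW4064 these 4 had 1.44, 1.23, 1.18 and 1.12. At the other end, chromosome 3 with 19 had an O/E of 0.634 in vehicle and 0.625 in GW4064, and chromosome 1 with 19 had 0.668 and 0.687. Chromosome 19 also made the other pairs of the lowest 5, with 2 (0.777 and 0.764), 10 (0.786 and 0.768) and 6 (0.809 and 0.833). Over all pairs, 18 (10.5%) had an O/E of at least 1.1 in vehicle and 14 (8.19%) in GW4064. The interval lay above 1 for 64 pairs (37.4%) in vehicle and 62 (36.3%) in GW4064, and below 1 for 76 (44.4%) and 74 (43.3%).

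Chromosomes 11 and 19 also shared partners. Chromosome 15 was above its expected count with both (11-15 at 1.14 in vehicle and 1.16 in GW4064), and so was chromosome 9 (9-11 at 1.14 and 1.18, 9-19 at 1.16 and 1.18). Chromosomes 1 and 3 were low with both, at 0.837 and 0.830 for 1-11 and 0.832 and 0.813 for 3-11. Among themselves, the long chromosomes 1, 2 and 3 were high, with 1-3 at 1.17 in each library, 1-2 at 1.15 in each and 2-3 at 1.12 and 1.11. At the other extreme of spread, chromosome 8 had pairs between 0.913 and 1.03 in vehicle, and chromosome 7 between 0.946 and 1.05, so each met all others close to its share.

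**Figure D1:**
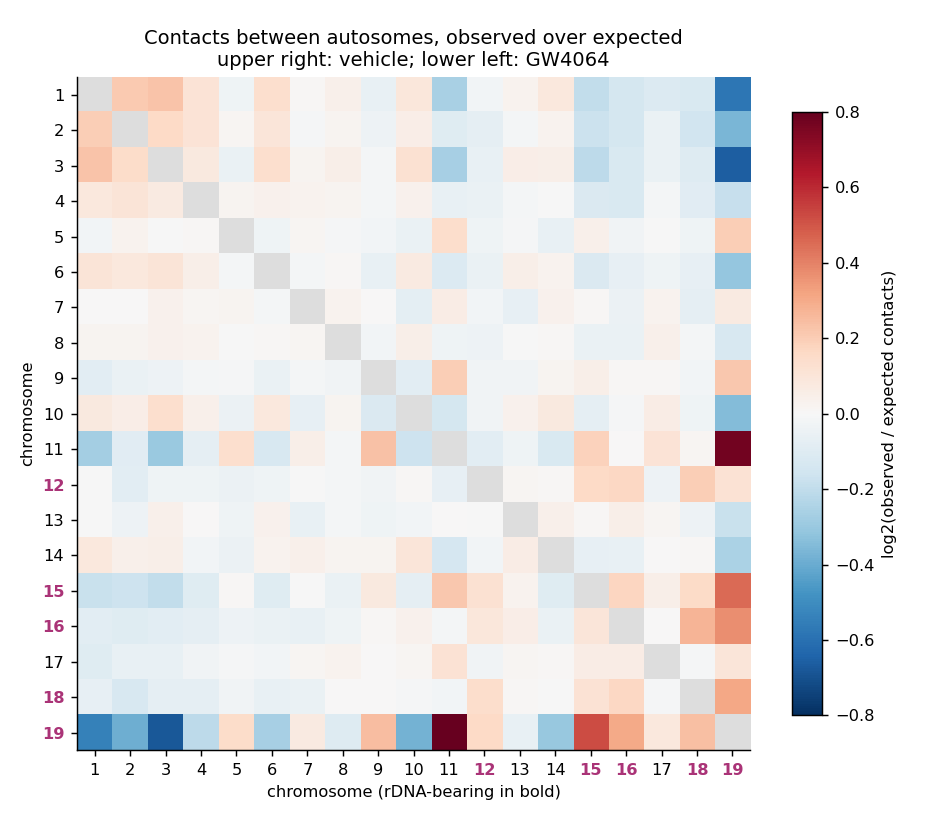
Heat map of log2 O/E for all pairs of autosomes, vehicle above the diagonal and GW4064 below it, with the rDNA-bearing chromosomes in bold. The darkest red cell in each triangle is 11-19 (O/E 1.71 and 1.74), and chromosome 19 also has the darkest blue cells, with chromosomes 1 and 3.

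The excess of 11-19 was as large away from the centromeres and with gene density taken into account. Its O/E was 1.69 in vehicle and 1.71 in GW4064 when the expected count was also scaled by the gene density of the windows. It was 1.71 and 1.76 without the 10 Mb next to the centromere side, and 1.72 and 1.75 without the 19 bins that had over 3 times the median trans count. Cut into blocks of 10 Mb, 88 of the 91 block pairs of 11-19 were above 1 in vehicle and 86 in GW4064, with medians of 1.58 and 1.60. In vehicle the highest block joined 120 to 130 Mb of chromosome 11, its far end, with the first 10 Mb of chromosome 19, at 154 contacts and an O/E of 4.78 (4.05 to 5.59) in vehicle and of 6.23 (5.34 to 7.24) in GW4064. Both blocks are gene-rich, with 33.5 and 32.0 protein-coding genes per window. The lowest block in vehicle, at 0.786 in vehicle and 0.724 in GW4064, joined 10 to 20 Mb of chromosome 11, with 2.3 genes per window, to the same end of chromosome 19. The same gene-rich end of chromosome 19 also led in its pair with chromosome 15, where the block with 70 to 80 Mb had an O/E of 2.65 in vehicle and 2.63 in GW4064. For 3-19, in contrast, 3 of 112 block pairs were above 1 in vehicle and 4 in GW4064, with medians of 0.603 and 0.598.

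Chromosomes of like length met slightly more than chromosomes of unlike length. Pairs with both members among 1 to 9 had a median O/E of 1.01 in each library, with a range of 0.959 to 1.17 in vehicle. Pairs with both members among 10 to 19 also had a median of 1.01 in each, and mixed pairs had 0.977 and 0.978. Summed over contacts, the short pairs had an O/E of 1.04 in vehicle and 1.03 in GW4064, and the mixed pairs 0.971 and 0.974. Among the short pairs, the 10 with 2 rDNA chromosomes summed to 1.17 in vehicle and 1.13 in GW4064. The 25 with 1 had 1.01 in each library, and the 10 with none had 1.00 and 0.999. When the expected count came from the numbers of windows in place of the trans totals, the short pairs had 1.21 and 1.22, since short chromosomes have more trans contacts per window. Over all pairs, the difference in length and O/E had r = -0.338 in vehicle and -0.315 in GW4064, as a description, since each chromosome is in 18 pairs. The mean gene density of a pair had almost no relation to O/E (r = 0.0598 and 0.0711). Pairs within the 5 gene-densest chromosomes had a median of 1.03 and 1.02, with a range in vehicle from 0.777 (2-19) to 1.71 (11-19).

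All 10 pairs among the 5 rDNA-bearing chromosomes had an O/E whose interval lay above 1, in both libraries. Over all pairs of autosomes that held for 37.4% in vehicle and 36.3% in GW4064. In vehicle the values were 1.12 for 12-15, 1.12 for 12-16, 1.15 for 12-18, 1.08 for 12-19, 1.13 for 15-16, 1.11 for 15-18, 1.37 for 15-19, 1.21 for 16-18, 1.30 for 16-19 and 1.24 for 18-19. In GW4064 they were, in the same order, 1.09, 1.06, 1.1, 1.12, 1.07, 1.08, 1.44, 1.12, 1.23 and 1.18. The median was 1.14 in vehicle and 1.11 in GW4064, against 0.966 and 0.976 for the 70 pairs with 1 rDNA chromosome and 1.01 and 1.01 for the 91 pairs with none. The 5 rDNA chromosomes are all short, so the 10 pairs among the other 5 chromosomes of 10 to 19 are the closer comparison. Their median was 1.02 in vehicle (0.906 to 1.08) and 1.01 in GW4064 (0.890 to 1.09), and 5 and 3 of them had an interval above 1. In vehicle the lowest rDNA pair, 12-19, lay just above the highest of these other pairs, and in GW4064 the 2 sets overlapped.

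The size of the rDNA excess depended on which chromosomes set the expectation. Summed over the 10 pairs it was 1.17 in vehicle and 1.13 in GW4064. With the expected counts fitted on chromosomes 10 to 19 alone it was 1.04 and 1.03, and 7 and 6 of the 10 pairs had an interval above 1. With only 10 chromosomes in the fit, the rDNA pairs make up much of each total they are compared with. The part of this in the lower sum was not tested. Left out in turn, each of the 5 chromosomes gave a sum between 1.16 and 1.23 in vehicle and between 1.1 and 1.18 in GW4064, with every remaining rDNA pair above 1 by its interval.

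O/E between rDNA chromosomes was highest near the centromeres and mostly lower further along. Windows within 10 Mb of the centromere side had an O/E of 1.61 (1.57 to 1.66) between 2 rDNA chromosomes in vehicle and 1.62 (1.57 to 1.66) in GW4064. The same windows of the other 5 short chromosomes had 1.32 (1.27 to 1.37) and 1.37 (1.32 to 1.41). Between any 2 chromosomes without rDNA they had 1.45 (1.43 to 1.46) and 1.45 (1.44 to 1.47), and between an rDNA chromosome and any other 1.13 and 1.14. At 10 to 20 Mb the rDNA set had 1.58 in vehicle and 1.52 in GW4064 and the other set 1.18 and 1.15. At 20 to 30 Mb the rDNA set had 1.37 and 1.36, while the other set had 0.969 and 1.01. At 50 to 60 Mb, the sets were at 1.1 and 1.05 in vehicle and 1.08 and 1.08 in GW4064, with overlapping intervals. Without the 10 Mb next to the centromere side, the refitted sum over the rDNA pairs was 1.17 and 1.13, as with them.

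**Figure D2:**
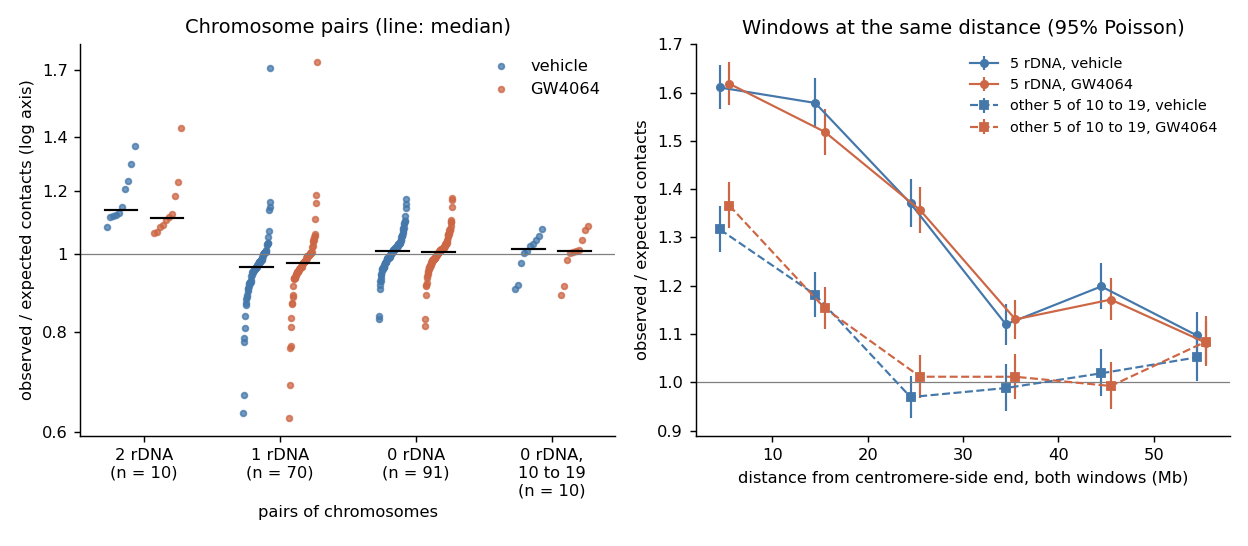
Left, O/E (log axis) of chromosome pairs with 2, 1 or 0 rDNA-bearing chromosomes and, last, of the pairs among the other 5 of chromosomes 10 to 19, with 1 point per pair and the median as a line. Right, O/E of window pairs at the same distance from the centromere-side end with 95% Poisson intervals, where in vehicle the rDNA set has 1.61 at 0 to 10 Mb and 1.1 at 50 to 60 Mb, and the other set 1.32 and 1.05.

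A single 50 kb bin gave a separate view of rDNA. The bin chr17:39800001-39850000 (mm10) holds Rn18s-rs5, an 18S ribosomal RNA related sequence, and AY036118 in the RefSeq table. The choice of this bin was made after seeing its values, as 1 with 1595 autosomal trans contacts in vehicle, 8.22 times the median bin, and 1322 in GW4064. Reads of the 18S genes in the rDNA arrays may align to such a copy, and which contacts came from the arrays was not tested. Of its contacts, 44.5% (42.1% to 47.0%) in vehicle and 47.6% (44.9% to 50.3%) in GW4064 went to the 5 rDNA chromosomes, where their trans totals give 23.1% and 23.4%. The 20 flanking bins sent 22.1% and 23.6% there.

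By partner chromosome, the O/E of this bin in vehicle was 1.76 for 12, 1.71 for 15, 2.57 for 16, 1.90 for 18 and 1.58 for 19. In GW4064 these were 1.96, 1.72, 2.42, 1.73 and 2.45. Each of the 5 was above each of the 13 other partners, of which the highest was chromosome 9, at 1.12 in vehicle and 0.987 in GW4064. The contacts were graded by distance here too. Windows 3 to 20 Mb along the rDNA chromosomes had an O/E of 2.82 in vehicle and 2.98 in GW4064, and windows past 60 Mb had 1.35 and 1.33. On the 13 other chromosomes the same distances gave 1.32 and 1.04, and 0.585 and 0.617. Some contacts of the 1 Mb window of this bin were piled up in single bin pairs. With chr6:3000001-4000000, 59 in vehicle and 12 in GW4064 lay in 1 bin pair. With chr16:11000001-12000000 these were 32 and 13, and with chr9:123000001-124000000 48 and 24. The O/E values by partner and by distance were not computed without such bin pairs.

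**Figure D3:**
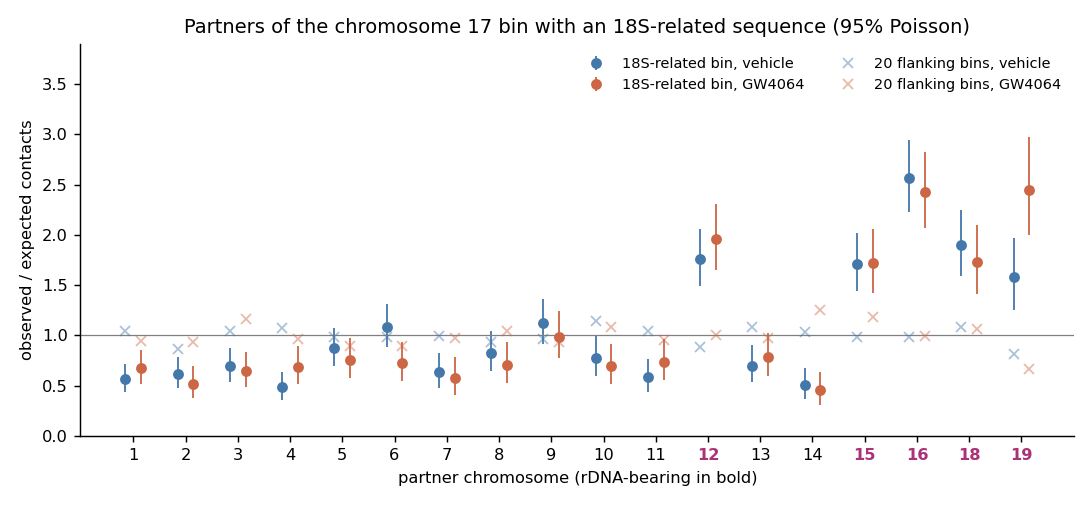
O/E of the trans contacts of the chromosome 17 bin with the 18S-related sequence, by partner chromosome, with 95% Poisson intervals (circles), and of the 20 bins around it (crosses). Chromosomes 12, 15, 16, 18 and 19 lie between 1.58 and 2.57 in both libraries, and the 13 others at or below 1.12.

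At the level of windows, gene-rich met gene-rich and gene-poor met gene-poor. Windows were put into 5 classes of about equal size by protein-coding genes, from 0 to 1 gene in the poorest to 14 to 66 in the richest. Pairs of windows both in the richest class had an O/E of 1.45 in vehicle and 1.52 in GW4064, and pairs both in the poorest had 1.37 and 1.4. Poorest with richest had 0.684 and 0.650. The ratio of like to unlike, (poorest with poorest plus richest with richest) over 2 times poorest with richest, was 2.06 in vehicle and 2.25 in GW4064. Under the 4 alternatives tried it lay between 2.01 and 2.06 in vehicle and between 2.14 and 2.25 in GW4064.

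Ends met ends. Window pairs both within 10 Mb of the centromere side had an O/E of 1.32 in vehicle and 1.33 in GW4064, and pairs both within 10 Mb of the telomere side had 1.14 and 1.18. Opposite ends had 0.849 and 0.832. Scaling by gene density left the centromere-side value at 1.32 and 1.33, and a class of 5 Mb raised it to 1.5 in each. With each chromosome cut into 10 segments of equal length, O/E between like segments was 1.30 and 1.31 for segment 1, at the centromere side, 1.00 and 0.998 for segment 5, and 1.16 and 1.21 for segment 10.

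**Figure D4:**
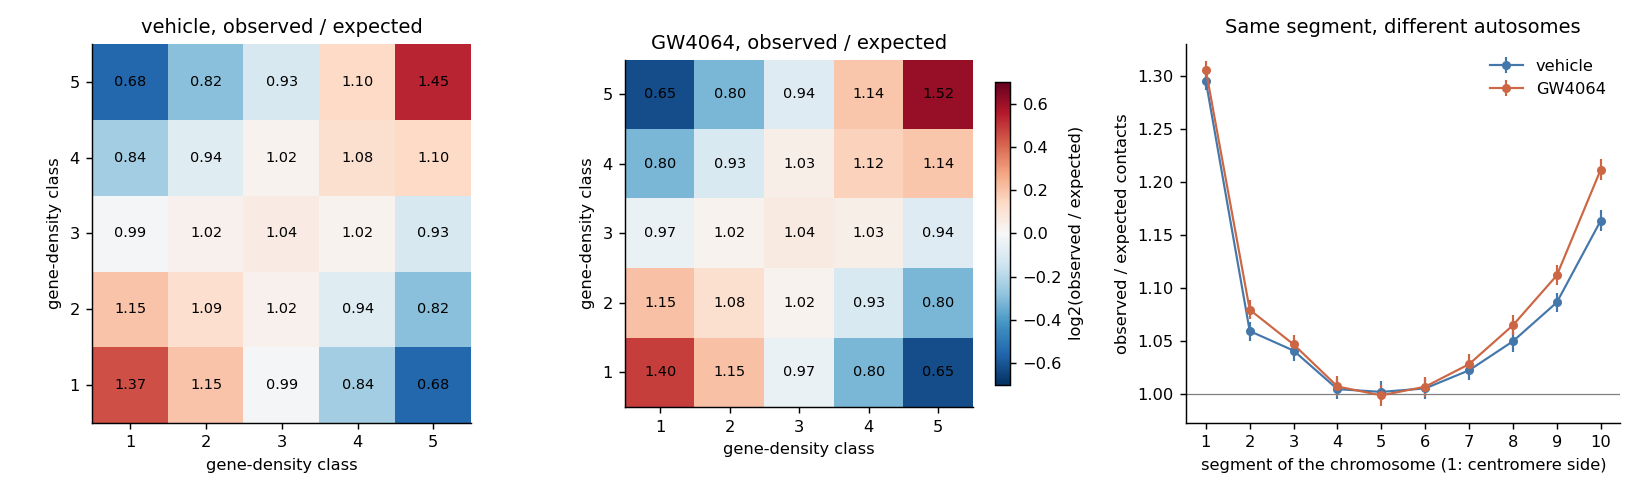
Left and middle, O/E between the 5 gene-density classes (1 poorest, 5 richest) of windows on different autosomes, in vehicle and GW4064. Right, O/E between windows in the same of 10 equal segments of different autosomes with 95% Poisson intervals, highest in segment 1 (1.30 and 1.31) and near 1 in segment 5.

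The trans share of single windows spanned a wide range. Its median was 28.9% in vehicle and 24.5% in GW4064, and it was lower in GW4064 in 2372 of 2374 windows (99.9%) and higher in 2 (0.0842%). The highest shares lay in the first assembled megabases of chromosomes. In vehicle and GW4064 they were 60.5% and 58.4% for chr11:3000001-4000000, which holds Sfi1, 54.8% and 53.1% for chr12:3000001-4000000, 48.6% and 44.2% for chr16:3000001-4000000, 48.5% and 43.1% for chr4:3000001-4000000, and 46.6% and 44.2% for chr19:3000001-4000000, which holds Cpt1a, the gate enzyme of mitochondrial fatty acid oxidation. A single bin of the chromosome 11 window, in Sfi1, held 5918 trans contacts in vehicle and 6867 in GW4064, 32.4 times the median bin over both libraries. The lowest shares were in gene deserts. A run on chromosome 2 around Lrrc4c, a synaptic adhesion gene, had 12.8% and 10.5% for chr2:96000001-97000000. The window of Sis on chromosome 3, which encodes intestinal sucrase-isomaltase, had 13.1% and 10.5%.

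Between the treatments, the pattern of chromosome pairs was much the same and the level of trans contacts was lower in GW4064. O/E in vehicle and in GW4064 had r = 0.980 (rho = 0.963) over all pairs, and r = 0.954 over the 136 pairs without chromosomes 11 and 19. Scaled to equal autosomal trans totals, 3 pairs (1.75%) were past 1.1-fold down in GW4064, by an interval under 1. They were 7-11, with 30013 and 27776 contacts and a ratio of 0.884 (0.869 to 0.898), 5-7 at 0.903 and 4-7 at 0.909. The pair 13-19, with 12688 and 14967 contacts and a ratio of 1.13 (1.1 to 1.15), was the only 1 that much higher (0.585%). Next came 3-16 and 10-16, both at 1.09. Scaled to all contacts in place of trans contacts, 170 of the pairs were called lower and none higher, a shift of 0.29 on the log2 scale that goes with the smaller trans share of the GW4064 library.

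The chromosomes differed in their totals too. Chromosome 7, the gene-densest, had a ratio of 0.932 and chromosome 11 had 0.961, while chromosome 3 had 1.04. Across the 19 autosomes, gene density and this ratio had r = -0.733 (rho = -0.753). After division by the expected counts, the O/E of 7-11 had a ratio of 0.992 (0.976 to 1.01), while that of 13-19 was still higher in GW4064, at 1.09 (1.06 to 1.11). By O/E, 23 pairs (13.5%) were higher in GW4064 and 25 (14.6%) lower, by intervals that cover counting error. Of the 10 rDNA pairs, 8 were lower and 2 (12-19 and 15-19) higher.

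The same gradient held for windows. Contacts of the poorest class had a GW4064 to vehicle ratio of 1.09, and those of the richest 0.917, with 1.04, 1.00 and 0.965 between. At 1.2-fold, 126 windows (5.31%) were lower in GW4064 and 35 (1.47%) higher. The richest class held 80 of the lower windows, 16.8% of that class, and the poorest held 20 of the higher. The gradient was not particular to trans contacts. The ratio of all contacts of a window, scaled to the library totals, had a median of 1.08 in the poorest class and 0.837 in the richest, and over windows it had r = 0.922 with the trans ratio. The part of library composition, such as base content, in this gradient was not tested.

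The 2 windows with the highest ratios adjoin each other in the immunoglobulin heavy chain locus. The window chr12:114000001-115000000, with 89 Igh entries in the RefSeq table, had 3587 trans contacts in vehicle and 5208 in GW4064, a ratio of 1.39 (1.33 to 1.45). The next window, with 55 Igh entries, had 3219 and 4516, a ratio of 1.34. Their ratios of all contacts were 1.33 and 1.39, so same-chromosome contacts moved with them. Other windows of the locus rose far less. The window just before these 2, with 72 Igh entries, had a trans ratio of 1.03 and 1.03 for all contacts. The window just after, with 3 entries, had 1.07 and 1.04. The third highest ratio was that of chr10:101000001-102000000 with Mgat4c, at 1.26. The lowest ratio belonged to chr7:47000001-48000000, with Ptpn5, at 2450 and 1528 contacts and 0.596 (0.558 to 0.635), where all contacts had a ratio of 0.498. The window chr8:120000001-121000000 had 0.723. On chr7:45000001-46000000, where Fgf21, a hepatokine gene, is 1 of 66 protein-coding genes, the ratio was 0.725. All contacts of these windows had ratios of 0.639 and 0.618. The 2 windows of chromosome 7 lie in 1 run of low trans ratios. The window between them had 0.736, the one before them 0.768, and the next 2 after them 0.805 and 0.742. The windows on each side of the chromosome 8 window had 0.823 and 0.807.

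Windows of 7 genes named for FXR signalling, the antiserum or liver function had ratios between 0.801 and 1.1. Nr0b2 encodes SHP, the repressor induced by FXR, and its window had 4341 trans contacts in vehicle and 3642 in GW4064, a ratio of 0.801 (0.766 to 0.837), the only 1 of 7 past 1.2-fold, beside 5.31% lower of all windows and 16.8% of the richest class, to which it belongs. The window of Abcb11, the bile salt export pump, had 3652 and 4195 contacts and a ratio of 1.1 (1.05 to 1.15), above 1, and this window is in the richest class too. The window of Slc51b, which makes the beta chain of a transporter that moves bile acids into blood, had 5098 and 4862 contacts and a ratio of 0.911, and that of Alb, the albumin gene, 0.943. Cyp7a1, whose enzyme starts the classical route from cholesterol to bile acids, lay in a window at 1.06. The windows of Foxa2 and Nr1h4 themselves had 0.980 (0.936 to 1.03) and 1.01 (0.969 to 1.06), with intervals across 1.

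Single window pairs were sparse. There were 2660433 pairs of kept windows on different autosomes, with a mean of 1.75 contacts in vehicle and 1.83 in GW4064, and 22.9% and 23.3% of them had none. Pairs with at least 10 contacts and 3 times the expected count numbered 4088 in vehicle (0.154%) and 5164 in GW4064 (0.194%), and 902 passed in both (0.0339%), which is 22.1% of the vehicle pairs and 17.5% of the GW4064 pairs. Pairs chosen in vehicle had a summed O/E of 3.39 in GW4064, which took no part in the choice, and 92.7% of them were above 1 there. Pairs chosen in GW4064 had 2.78 in vehicle, with 86.5% above 1. The fall from the level of choice to the other library is built into choosing high counts.

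Several of the highest pairs had many of their contacts in 1 bin pair, to differing degrees. The window chr4:147000001-148000000, with the zinc finger genes Zfp978 and Zfp991, and chr6:58000001-59000000, with vomeronasal receptor genes, had 54 contacts in vehicle and 98 in GW4064, O/E 24.9 and 36.6, but 24 and 42 of them lay in 1 pair of 50 kb bins. The same window of chromosome 4 with chr12:20000001-21000000 had 44 and 53 contacts, O/E 24.8 and 27.8, with up to 12 and 7 in 1 bin pair. The window chr12:3000001-4000000 with chr9:35000001-36000000 had 76 and 114 contacts, of which 72 and 105 lay in 1 bin pair. The chromosome 17 window with the 18S-related bin and chr6:3000001-4000000 had 61 and 15, of which 59 and 12 did. Over all autosomal trans contacts, 99.6% of the bin pairs with any contact held exactly 1. In 30 of the 902 shared pairs, over 20% of the contacts lay in 1 bin pair, and the other 872 are described next.

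First assembled megabases of several chromosomes met each other with contacts spread over bins. The first windows of chromosomes 4 and 8 had 69 and 98 contacts, O/E 17.5 and 24.8, with at most 10 and 13 in 1 bin pair, and those of 4 and 7 had 46 and 54, O/E 16.1 and 18.6. Those of 16 and 18 had 47 and 84, O/E 13.1 and 19.7, and those of 13 and 18 had 50 and 49, O/E 13.3 and 11.8. Windows next to the unassembled centromeres can hold repeats that align in several places, and the part of such reads was not tested.

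These 872 were mostly gene-rich. Both windows were in the richest gene class in 58.3%, against 3.96% of all pairs, and both in the poorest in 5.16%. Among all pairs past the threshold in vehicle these shares were 47.0% and 5.45%, and in GW4064 27.9% and 11.9%. The chromosome pair 11-19 held 120 of the 872 (13.8%), which is 1.74% of its window pairs. A few windows recurred as hubs. The window chr11:121000001-122000000 with Cd7 and Sectm1b, took part in 47 shared pairs with 9 chromosomes. On chromosome 15, the window chr15:81000001-82000000, with Mrtfa, a cofactor of serum response factor, took part in 40 with 11 chromosomes. The gene-rich windows chr19:4000001-5000000 and chr19:5000001-6000000, the latter with the cofilin gene Cfl1, took part in 32 and 31. Of the 50 windows with 10 or more shared pairs, 43 were in the richest class. The window chr16:3000001-4000000 was unlike these, with 30 pairs but only 3 partner chromosomes.

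Among liver genes, windows of 3 cytochrome P450 clusters (Cyp2c, Cyp3a, and Cyp2a with Cyp2b) were high with each other. The window chr19:39000001-40000000, with Cyp2c genes, and chr5:145000001-146000000, which the Cyp3a cluster enters, had 31 contacts in vehicle and 19 in GW4064, where 2.29 and 2.65 were expected, O/E 13.5 (9.18 to 19.2) and 7.16 (4.31 to 11.2). No bin pair held more than 2 of them in vehicle or 1 in GW4064. Both families metabolise drugs and steroids in hepatocytes, Cyp3a genes as targets of the xenobiotic receptor PXR. Of the pairs without centromere-side windows, 4 had a higher O/E in vehicle, each with over 20% of its vehicle contacts in 1 bin pair.

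Of 2316 windows on other chromosomes, chr5:145000001-146000000 ranked 1 in vehicle and 2 in GW4064 by O/E with the Cyp2c cluster. Of 2229 for Cyp3a, the Cyp2c window ranked 1 and 6, and the window with Cyp2b13, chr7:26000001-27000000, ranked 3 and 1. To place this pair, 20 clusters of liver genes were named after these values were seen, which gave 182 cluster pairs on different autosomes. Cyp2c with Cyp3a had the highest O/E in vehicle, 63 contacts and 7.59 (5.83 to 9.71), and 51 contacts and 5.71 (4.25 to 7.51) in GW4064. Cyp3a with the Cyp2a and Cyp2b cluster had 62 and 48 contacts, at 5.67 and 4.74, and Cyp2c with that cluster 33 and 38, at 2.50 and 2.79. No pair with the Cyp2d or Cyp4a cluster among the P450 clusters had an interval above 1 in both libraries. The Cyp2d cluster had 3.11 (1.7 to 5.23) and 2.06 (0.942 to 3.91) with Cyp2c and 1.88 and 0.921 with Cyp3a, and the Cyp4a cluster had 0.269 and 0.984 with Cyp2c and 1.62 and 1.98 with Cyp3a, with intervals across 1 apart from the first. All 182 together had a summed O/E of 1.57 and 1.61, and 33 (18.1%) and 30 (16.5%) had an interval above 1, 13 of them in both. Scaled by gene density the sums were 1.27 and 1.26. Around the Cyp2c and Cyp3a windows, O/E fell from 13.5 and 7.16 to 5.30 and 3.76 in the ring of windows 1 Mb away. It was 3.52 and 3.67 at 2 Mb and 2.36 and 2.72 at 3 Mb, so in GW4064 the rings at 1 and 2 Mb were alike.

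Histone gene clusters of different chromosomes also met. The replication-dependent histone genes, which are transcribed in S phase and gather in histone locus bodies, lie mainly on chromosome 13 with a smaller group on chromosome 3. The windows chr13:23000001-24000000 and chr3:96000001-97000000 had 26 contacts in vehicle and 37 in GW4064, O/E 11.8 and 17.3, and chr13:21000001-22000000 with the same window of chromosome 3 had 18 and 26, O/E 9.14 and 13. The signal was narrow. The ring at 3 Mb had 1.32 (0.967 to 1.76) and 1.09 (0.792 to 1.47). Over all 8 windows of the histone list, which also took in the replication-independent linker genes H1f0 and H1f10, O/E was 2.28 and 2.99. It was 1.58 and 1.96 after scaling by gene density, and 1.81 and 2.24 without the fullest window pair.

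Some pairs lay outside liver function. The window chr16:3000001-4000000, with the olfactory receptor genes Olfr15 and Olfr161, and the Olfr cluster of chr19:13000001-14000000 had 40 and 49 contacts, O/E 12.4 and 11.5. This chromosome 16 window is the first assembled megabase and holds a bin at 6.12 times the median trans count. With the chromosome 19 windows up to 3 Mb to each side it had 11 to 21 contacts in vehicle and 4 to 33 in GW4064. The chromosome 16 window 1 Mb on had 2 and 4 contacts with the Olfr cluster window, where 3.05 and 3.26 were expected. The part of the olfactory genes in these contacts was not tested. A pair of gene-poor windows, chr3:119000001-120000000 with Dpyd, which breaks down pyrimidines, and chr7:136000001-137000000 with Mgmt, a DNA repair gene, had 24 and 21 contacts, O/E 9.92 and 8.39. They were picked out after their values were seen, as the pair with the fewest genes among the leading ones. The signal was broad, still 4.45 and 4.49 in the ring at 2 Mb and 2.74 and 2.81 at 3 Mb, with at most 2 contacts per bin pair.

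**Figure D5:**
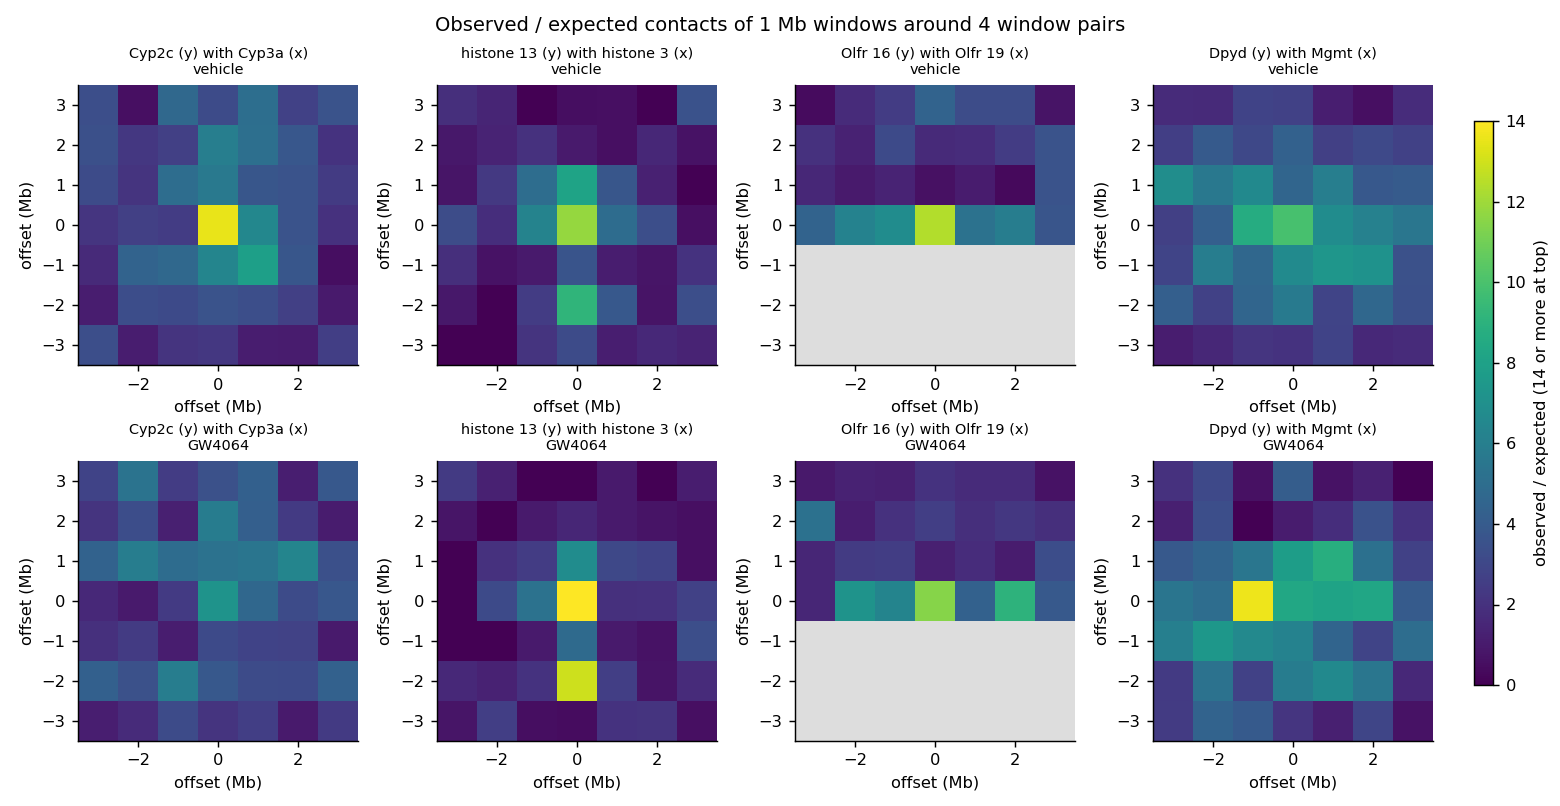
O/E of pairs of 1 Mb windows up to 3 Mb to each side of 4 window pairs, vehicle above and GW4064 below, with windows that were not kept or do not exist in grey. The histone pair is narrow, with a second spot 2 Mb away on chromosome 13, while the pair of Dpyd and Mgmt windows is raised over most of the square.

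Windows of 10 of the 11 gene lists had a summed O/E above 1 by interval in both libraries, all but bile acid synthesis. The 28 windows of FXR-induced genes had 880 contacts among them in vehicle and 822 in GW4064, O/E 1.33 (1.24 to 1.42) and 1.34 (1.25 to 1.43), which became 1.19 and 1.17 after scaling by gene density. The ratio of the O/E values between the libraries was 1.01 (0.917 to 1.11). Of these 28 windows, 5 were called lower in trans contacts and none higher, beside 5.31% lower of all windows and 16.8% of the richest class. Their highest pair by O/E in vehicle, of those with at least 10 contacts, joined the windows of Slc51a and Slc51b, which encode the 2 subunits of the same bile acid exporter on chromosomes 16 and 9, with 18 and 15 contacts and O/E 5.84 (3.46 to 9.23) and 5.55 (3.10 to 9.15). By the same rule, out of 355 window pairs, the windows of Kng1 and Slc51b came next, with 12 and 4 contacts. They were at 4.80 in vehicle and 1.73 (0.471 to 4.42) in GW4064. Then came the windows of Slc51a and Nr0b2, with 12 and 10, at 4.54 and 4.90. The windows of Slc51a and Slc51b thus each recurred in these next pairs, and that of Slc51b is in the richest gene class. The part of the 2 exporter genes in the leading value was not tested. Windows of bile acid synthesis genes had 1.04 (0.926 to 1.17) and 1.00 (0.888 to 1.12), with intervals across 1.

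Housekeeping genes had 1.66 and 1.69, ribosomal protein genes 1.41 and 1.5, and lipid and cholesterol synthesis genes 1.60 and 1.58, the last with 1.4 and 1.36 after scaling by gene density. By the rule used for FXR-induced genes, the windows of Dgat1 with Fasn and with Acly led the lipid list, at 9.22 and 8.74 in vehicle. In GW4064 they had 5.66 (2.08 to 12.3) and 3.36 (0.915 to 8.60). Next came the windows of Fasn, fatty acid synthase, and Scd1, stearoyl-CoA desaturase, with 16 and 14 contacts, at 8.06 and 9.27. These windows are hubs, with 23 and 27 shared pairs, and their whole block pair of 11-19 had 3.82 in vehicle and 4.30 in GW4064. The part of lipid genes in this value was not tested. Liver transcription factors and nuclear receptors had 1.26 and 1.29, and secreted hepatocyte proteins 1.23 and 1.31. Neuronal genes, mostly silent in hepatocytes, had 1.27 and 1.36, close to both of these, and 3 of their 73 windows were called higher and none lower, beside 1.47% higher of all windows and 4.21% of the poorest class. Their median window held 1 protein-coding gene. Vomeronasal receptor genes had 1.28 and 1.37. Olfactory receptor genes had 1.04 and 1.07, and 0.792 and 0.779 after scaling by gene density, since their clusters count as gene-rich.

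Pairs with few contacts did not always repeat. The windows of Apoe and of the Itih genes had 10 contacts in vehicle and 0 in GW4064, where the interval of O/E reached up to 2.78. This pair was among the 3 highest pairs of the list of secreted hepatocyte proteins in vehicle and was chosen there, so the lower count in GW4064 is no measure of treatment.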

How the data were processed

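The study profiled Foxa2 HiChIP contacts in 1 vehicle and 1 GW4064 liver library. The submitters' processing notes name HiC-Pro, Bowtie2 (version 2.2.9) and the mm10 build, and do not say how duplicates were handled. The authors deposited raw contact counts for pairs of 50 kb bins, without normalization. These were summed to 1 Mb windows with Python 3.11.15, numpy 2.4.6, pandas 2.3.3 and scipy 1.17.1 and drawn with matplotlib 3.10.9. Expected counts came from an iterative fit that keeps every chromosome's or window's trans total and leaves out same-chromosome pairs, and the fit was tested on simulated data. Ratios of GW4064 to vehicle were scaled to equal autosomal trans totals in kept windows. Genes came from the RefSeq table of GRCm38.p6, the mm10 assembly. With 1 library per group no test was made. Sequences of the windows are not printed here.

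The members, gene lists and rules were chosen with earlier results of these data known. Named were the 5 highest and 5 lowest chromosome pairs by O/E in vehicle, the 3 highest and 3 lowest by ratio, all 10 rDNA pairs, the 5 windows at each end of the trans share and 3 at each end of the ratio, examples from the 10 highest shared window pairs and the 5 highest without centromere-side windows, and 7 genes by their windows. Further chromosome pairs, the spread window pairs, the chromosome 17 bin, the 10 Mb blocks, the rings, the 20 liver clusters and the settings without bins over 3 times the median were added after seeing the data.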

Additional observations from a re-analysis of the deposited data

How the results depend on the processing

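Scaled by gene density, the O/E of 2 gene lists crossed 1: olfactory receptor genes, from 1.04 and 1.07 to 0.792 in vehicle and 0.779 in GW4064, and bile acid synthesis genes in vehicle, from 1.04 to 0.972. The rDNA pairs moved with the choice of chromosomes and of position. With chromosomes 10 to 19 alone their summed O/E was 1.04 in vehicle and 1.03 in GW4064, with 70% and 60% of the pairs above 1 by interval. Without chromosome 12, 15, 16, 18 or 19 it was 1.23, 1.19, 1.19, 1.19 and 1.16 in vehicle and 1.18, 1.14, 1.16, 1.16 and 1.1 in GW4064. With the 10 Mb nearest the centromere side alone it was 1.38 in each, and with the plain product of trans totals 1.15 and 1.11. Pairs among chromosomes 10 to 19 had summed O/E values of 1.21 and 1.22 with expected counts from window numbers, 1.02 and 1.02 with the plain product, and 1.03 in GW4064 without chromosomes 11 and 19. Mixed pairs had 0.983 and 0.987 from window numbers and 0.977 and 0.981 without chromosomes 11 and 19. The gene density ratio was 2.01 and 2.14 with classes by all genes. Centromere-side O/E was 1.5 in each library for 5 Mb, 1.30 and 1.31 without bins over 3 times the median, and 1.31 in GW4064 with each bin pair counted once. The median trans share was 34.3% and 29.7% without contacts inside a bin. Scaled to all contacts, 0 chromosome pairs and 0 windows were called higher in GW4064, and 170 pairs and 1284 windows lower, while the windows with fewer genes than the median gave 3 pairs higher and 5 lower. Shared enriched window pairs at 5-fold numbered 467, from 2017 in vehicle and 2438 in GW4064, and thinning GW4064 to the vehicle depth gave 4287 in GW4064 and 800 shared. Contacts among FXR-induced genes' windows had 1.19 and 1.17 after scaling by gene density. No paired analysis was possible because each group had 1 library. At this depth the mean window pair had under 2 contacts, so differences between libraries in single window pairs were mostly not detectable.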

Other observations

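Of the 19 bins with over 3 times the median trans count, 2 adjoining ones lay at the Ugt1a locus, which encodes glucuronosyltransferases that conjugate bilirubin and drugs. The bin chr1:88200001-88250000, with Ugt1a10, Ugt1a9 and Ugt1a8, had 1453 trans contacts in vehicle and 1475 in GW4064, and the next, with Mroh2a and Hjurp, had 1454 and 1317. The bin chr4:81300001-81350000 in Mpdz had 1350 in vehicle and 855 in GW4064, and the bin chr6:103600001-103650000 in Chl1 had 751 and 1140, so these high bins differed between the libraries in opposite directions. All 19 bins together held 0.506% of the autosomal trans contacts in vehicle and 0.549% in GW4064.

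Among the liver clusters, the trans contacts of the Ugt2 cluster had the highest GW4064 to vehicle ratio, 1.14, and those of the cluster from Apoe to Apoc2 the lowest, 0.798. The Apoe to Apoc2 window holds 54 protein-coding genes. For comparison, the richest gene class had a ratio of 0.917, with 16.8% of its windows called lower, and the poorest class 1.09. The cluster pair of Mup and Hsd3b had 10 contacts in vehicle and 8 in GW4064, O/E 3.52 (1.69 to 6.47) and 3.00 (1.29 to 5.91). Scaled by gene density these were 2.78 and 2.27. That of Cyp2d and Mup had 9 in each, O/E 2.38 (1.09 to 4.53) and 2.85 (1.30 to 5.40), or 1.88 and 2.16 scaled. The third pair of these 3 clusters, Cyp2d and Hsd3b, had 0 and 1 contacts, O/E 0 and 0.743. They were picked out of the 182 pairs after their values were seen.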
